A study of Mus musculus with 4 samples.

Results

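The cholesterol synthesis genes described here are 6 enzymes of the sterol pathway (*Hmgcs1*, *Idi1*, *Fdps*, *Fdft1*, *Sqle* and *Cyp51*) and a pair of regulators (*Insig1* and *Srebf2*). They were picked by name as sterol-regulated genes, and all 8 had a row among the 23361 genes of the deposited table. The table covers 4 RNA-seq libraries of early T lineage progenitors (ETP), the most immature precursors in the mouse thymus, sorted from female C57BL/6 mice as lineage-negative thymocytes with CD44 and CD117 but without CD25 on their surface. Young mice were 4 to 6 weeks and old mice 72 weeks of age by the labels, with 2 libraries an age, and the labels name no transgene, deletion or treatment at either age. The table names the old condition 20m and gives the libraries of each age the numbers 0 and 1. They are named replicates 1 and 2, and paired values are given in that order. Nothing in the labels says that these libraries came from separate animals, so p-values measure the spread between libraries, which may be technical.

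Cholesterol is made from acetyl-CoA through mevalonate, isoprenoid diphosphates, squalene and lanosterol. The enzyme genes share a switch: the transcription factor SREBP2, encoded by *Srebf2*, is held in the endoplasmic reticulum by INSIG proteins while sterols are plentiful, and is cut free and enters the nucleus when sterols run low. Dividing cells need sterols for new membranes, and intermediates of the pathway also anchor signaling proteins to membranes. *Insig1* is itself a target of this switch, as is *Srebf2*, which makes the circuit a feedback loop.

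Promoter sequences are shown because SREBP2 is known to act through a short element near the gene start, together with NF-Y and Sp1. RefSeq sequences of GRCm38.p6 matched 5 of the 8 genes (*Hmgcs1*, *Idi1*, *Cyp51*, *Insig1* and *Srebf2*). The letters TCACNCCAC (sterol regulatory element), CCAAT (NF-Y), GGGCGG (Sp1) and CACGTG (E-box) were searched on both strands of the 250 bases before each gene start, and no match overlapped another in these 5 windows. Capitals mark the matches, with up to 1 mismatch allowed for the sterol element, and bases past the earlier of the RefSeq and GENCODE gene starts are left off.
*Hmgcs1*, chr13:119690101-119690350, plus strand: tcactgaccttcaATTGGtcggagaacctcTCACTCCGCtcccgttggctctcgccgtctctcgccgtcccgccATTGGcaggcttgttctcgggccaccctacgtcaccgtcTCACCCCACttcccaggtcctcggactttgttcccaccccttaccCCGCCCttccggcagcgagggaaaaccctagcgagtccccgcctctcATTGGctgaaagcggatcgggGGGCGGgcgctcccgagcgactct
*Cyp51*, chr5:4104747-4104947, minus strand: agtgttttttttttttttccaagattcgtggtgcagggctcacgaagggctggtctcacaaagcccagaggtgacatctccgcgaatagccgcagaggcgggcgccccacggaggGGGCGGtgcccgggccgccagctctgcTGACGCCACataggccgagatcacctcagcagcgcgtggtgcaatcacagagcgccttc
*Insig1*, chr5:28071162-28071362, plus strand: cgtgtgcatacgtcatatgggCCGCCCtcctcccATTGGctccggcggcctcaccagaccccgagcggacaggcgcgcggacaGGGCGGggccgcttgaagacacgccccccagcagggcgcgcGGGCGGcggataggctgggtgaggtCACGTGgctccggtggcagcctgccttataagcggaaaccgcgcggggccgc
*Srebf2*, chr15:82147019-82147180, plus strand: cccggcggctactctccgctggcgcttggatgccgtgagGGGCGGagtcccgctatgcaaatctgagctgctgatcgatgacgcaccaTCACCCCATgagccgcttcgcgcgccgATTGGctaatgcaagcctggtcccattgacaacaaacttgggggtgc
An exact sterol element stood in 1 of the 5 windows, that of *Hmgcs1* at bases -137 to -129 from the RefSeq start, against 1.05% of all 32851 promoters. With 1 mismatch allowed, 4 of 5 held one (*Hmgcs1*, *Cyp51*, *Insig1* and *Srebf2*), against 20.7% of all promoters. In *Srebf2* it lay at -162 to -154 and an inverted CCAAT at -135 to -131. The match of *Insig1* was in its last 9 bases before the start, past the printed stretch. CCAAT was found in 5 of 5 (33.8% of all), GGGCGG in 5 of 5 (32.7% of all) and CACGTG in 1, *Insig1* (6.02% of all). The only CCAAT of *Cyp51*, at -29 to -25, and some GGGCGG of *Srebf2* also lay past the printed stretches. *Idi1* is not printed. Its GENCODE start lies 105 bases upstream of the RefSeq start, and all its matches lay past that GENCODE start. These are matches of letters, not measured binding.

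**Figure D1:**
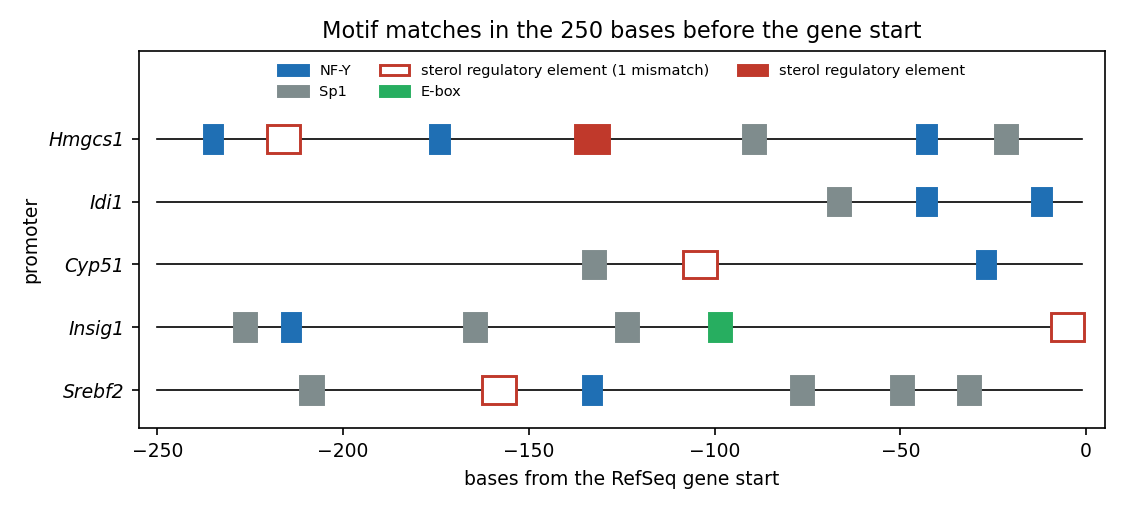
Matches of 4 motifs in the 250 bases before the RefSeq start of 5 genes, with distance from the start in bases on the x axis and filled boxes for exact matches. The exact sterol element is in *Hmgcs1* alone, and each of the 5 windows holds NF-Y and Sp1 letters.

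The libraries held 16658864 and 6414915 fragments in the young samples, against 11816478 and 4839341 in old replicates 1 and 2. Of the sorted phenotype, *Kit* (CD117) lay between 764 and 1096 normalized CPM in the 4 libraries and *Il2ra* (CD25) between 22.9 and 39.9. *Cd44* was at 496 and 517 CPM in young against 636 and 519 in old replicates 1 and 2. Of 9 tested genes of the ETP list, 5 had higher and 4 lower estimates in old. *Notch1*, one of the lower, was at 1273 and 1204 CPM in young against 963 and 577 in old. CPM are fragment counts scaled to a common library size set by TMM. For conventional dendritic cells, 13 of 13 tested marker genes had higher estimates in old ETP, with summed levels of 1457 and 2277 CPM in young against 7704 and 23750 in old replicates 1 and 2, and 0 of the 14 listed genes were at 0 in a whole age. Markers of NK and innate lymphoid cells (7 of 8 tested genes higher) summed to 251 and 255 CPM in young against 402 and 435 in old, with *Tbx21* at 0 in both young libraries. Most of the young sums was *Nkg7*, the tested gene with a lower estimate, at 220 and 214 CPM in young against 231 and 158 in old. The median log2 fold change of the 8 tested genes was 3.04. S phase genes summed to 4661 and 3668 CPM in young against 3617 and 2477 in old, and 23 of 23 had lower estimates in old. Genes of G2 and M phase summed to 3350 and 2277 CPM in young against 1650 and 2506 in old, and 21 of 22 had lower estimates. The median log2 fold change of the G2 and M phase genes was -0.36, but 0.18 without young replicate 1, and that of the S phase genes was -0.39, and dropping any 1 library moved it over 1.5 times: to -0.19 or -0.65 with young replicate 1 or 2 left out, and to -0.78 or -0.21 with old replicate 1 or 2 left out. Markers of T cells past the ETP stage (3 of 4 tested genes higher) summed to 90.4 and 71.6 CPM in young against 98.4 and 139 in old, and DESeq2 called *Cd3e*, a T cell receptor subunit named after its values were seen, with a log2 fold change of 2.93 and an adjusted p of 0.00142. Markers of macrophages and other myeloid cells (3 of 8 tested genes higher) summed to 2065 and 1359 CPM in young against 1513 and 742 in old. Most of each sum was *Mpo*, at 1716 and 1092 CPM in young against 1126 and 437 in old. *Lyz2*, with a higher estimate in old, was at 128 and 111 CPM in young against 173 and 142 in old. Markers of plasmacytoid dendritic cells, stroma, B cells and erythroid cells summed to 213 to 330, 147 to 184, 26.6 to 40.1 and 7.63 to 17.9 CPM, with the sums of both ages overlapping in each. A sum can hide single genes. Of the plasmacytoid genes, 3 of 4 tested had higher estimates in old, with *Irf7* at 17.3 and 17.0 CPM in young against 34.9 and 62.5 in old. The other 3 lists had 1 tested gene each, with a lower estimate. The part of these differences in the results below was not tested. In bulk RNA, fewer cells of a type and less RNA per cell cannot be told apart.

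*Srebf2* had the highest count of the 8 genes in every library and the largest estimated difference between the ages. Young replicates 1 and 2 were at 138 and 132 CPM, and old replicates 1 and 2 at 213 and 214 CPM. Both old libraries lay above both young ones, and replicate 1 was at 1.04 times replicate 2 in young and 0.994 times in old ETP. The young mean was 135 ± 4.19 CPM (SD, n = 2) and the old mean 214 ± 0.977 CPM (SD, n = 2), 1.59 times as high. The log2 fold change was 0.66 (standard error 0.24, 95% interval 0.054 to 1.27) in edgeR's quasi-likelihood test, with an unadjusted p of 0.0376 and an adjusted p of 0.828 over the 10080 genes tested. DESeq2 gave 0.67 with an adjusted p of 0.773. In GRCm38 the gene spans 82147181 to 82205379 of chromosome 15, plus strand, and shares no exonic position with another gene of GENCODE M21.

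At an adjusted p under 0.05 and with age as the only term, 0 of the 8 genes were called by edgeR, which called 0% of all 10080 tested genes, and 0 by DESeq2, which called 2.23%. At an unadjusted p under 0.05 in edgeR, 1 of the 8 was higher in old ETP (*Srebf2*), against 4.65% of all tested genes, and 0 of the 8 were lower, against 0.913%. Both old libraries lay above both young ones for 3 of 8 (*Srebf2*, *Cyp51* and *Sqle*), against 16.1% of tested genes, and below them for 1 of 8 (*Fdft1*), against 15.5%. With 2 libraries an age, the smallest two-sided p of an exact permutation test on 1 gene is 0.333.

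**Figure D2:**
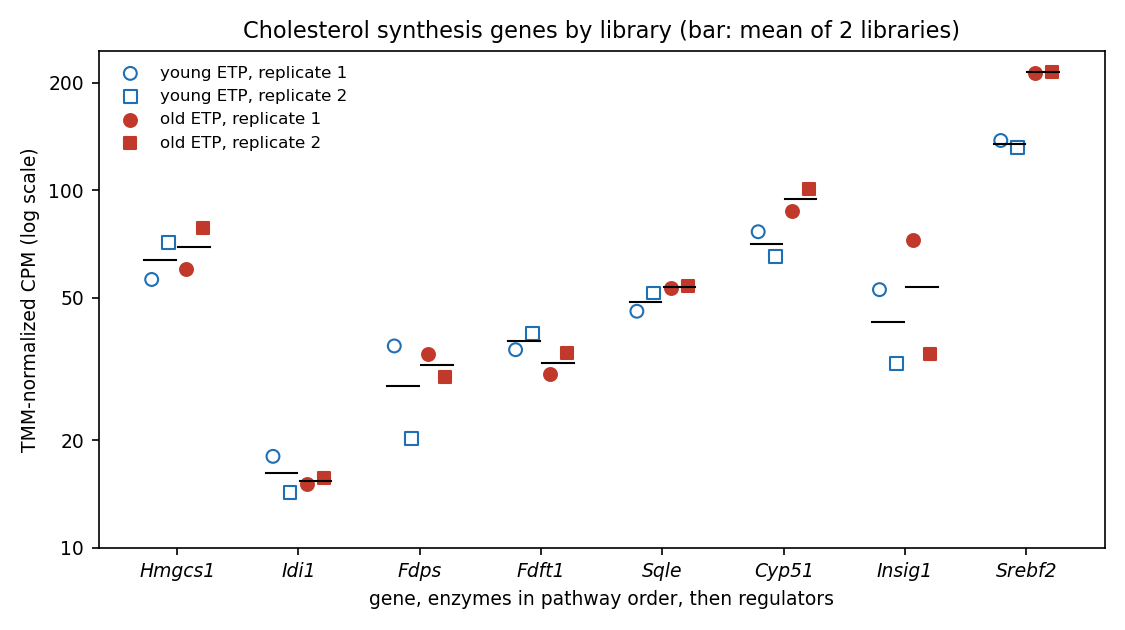
Levels of the 8 genes in normalized CPM (log axis), with open symbols for young and filled symbols for old ETP, circles for replicate 1, squares for replicate 2 and a bar for the mean of each age. The ages do not overlap for *Srebf2*, at 138 and 132 against 213 and 214 CPM, nor for *Cyp51*, *Sqle* and *Fdft1*. The libraries of an age spread widely for *Insig1* and, in young ETP, for *Fdps*.

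The enzymes had smaller estimated differences between the ages than *Srebf2*, a contrast that was not tested. *Hmgcs1*, cytosolic HMG-CoA synthase, which makes the precursor of mevalonate, was at 56.3 and 71.3 CPM in young against 60.4 and 78.4 in old replicates 1 and 2. Its libraries overlapped between the ages, with replicate 2 above replicate 1 in each. The log2 fold change was 0.12 (95% interval -0.59 to 0.83, adjusted p = 0.999), and the estimate turned to -0.040 without young replicate 1 and -0.10 without old replicate 2. *Idi1*, which interconverts the isoprenoid building blocks, was the least expressed of the 8, at 18.0 and 14.3 CPM in young against 15.1 and 15.7 in old. Both old values lay between the young ones. Its log2 fold change was -0.071 (95% interval -0.92 to 0.78, adjusted p = 0.999), and 0.11 without young replicate 1. The annotation places *Hmgcs1* on chromosome 13 from 119690379 to 119708260 and *Idi1* on the same chromosome from 8885501 to 8892451, both on the plus strand, each sharing exonic positions with a predicted gene on the other strand (*Gm48342* and *Gm48574*).

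*Fdps*, which joins the building blocks to farnesyl diphosphate, where sterol synthesis and protein prenylation part ways, was at 36.7 and 20.2 CPM in young against 34.8 and 30.1 in old replicates 1 and 2. Young replicate 2 was the low library, and the other three were close. The log2 fold change was 0.19 (95% interval -0.78 to 1.16, adjusted p = 0.999), with 0.69 without young replicate 1 and -0.18 without young replicate 2. The low value rests on 126 fragments, against 627 in young replicate 1. The gene is on the minus strand of chromosome 3 from 89093588 to 89101959, and shares exonic positions with *Gm43738* on the same strand.

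*Fdft1*, squalene synthase, the first step given over to sterols, was at 35.8 and 39.7 CPM in young against 30.6 and 35.1 in old replicates 1 and 2. Both old libraries were below both young ones, with a gap of 0.737 CPM at the nearest. The log2 fold change was -0.20 (95% interval -0.91 to 0.51, adjusted p = 0.999), and -0.066 without old replicate 1. It is the only one of the 8 whose fragments were not whole numbers in any of the 4 libraries. On chromosome 14 from 63145150 to 63179578, minus strand, it shares exonic positions with *Ctsb* on the other strand, and neither the labels nor the methods state that counting used strand.

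*Sqle*, the oxygen-dependent squalene epoxidase and a slow step of the pathway, was at 45.9 and 51.6 CPM in young against 53.2 and 54.0 in old replicates 1 and 2. *Cyp51*, the demethylase that acts on lanosterol, was at 76.5 and 65.2 CPM in young against 87.5 and 100.9 in old. Neither gene overlapped between the ages, but the gap was 1.63 CPM for *Sqle* and 11.0 CPM for *Cyp51*. The log2 fold changes were 0.14 (95% interval -0.50 to 0.77) and 0.41 (95% interval -0.23 to 1.05), with adjusted p = 0.999 for both. Without young replicate 1 the estimate for *Sqle* was 0.056. *Sqle* lies on chromosome 15 from 59315077 to 59331192, plus strand. *Cyp51* lies on chromosome 5 from 4081145 to 4104746, minus strand, and shares exonic positions with *Akap9* on the other strand.

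*Insig1*, which encodes the sterol-dependent brake on SREBP processing, had the largest ratio between libraries of an age among the 8 genes, in old ETP. Its levels were 52.7 and 32.8 CPM in young against 72.7 and 34.9 in old replicates 1 and 2. Replicate 1 was 1.61 times replicate 2 in young and 2.09 times in old ETP. The log2 fold change of 0.33 between the ages (95% interval -0.79 to 1.46, adjusted p = 0.999) turned to -0.27 without old replicate 1 and was 0.73 without old replicate 2. The gene lies on chromosome 5 from 28071363 to 28078662, plus strand, with no exonic position shared with another gene.

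**Figure D3:**
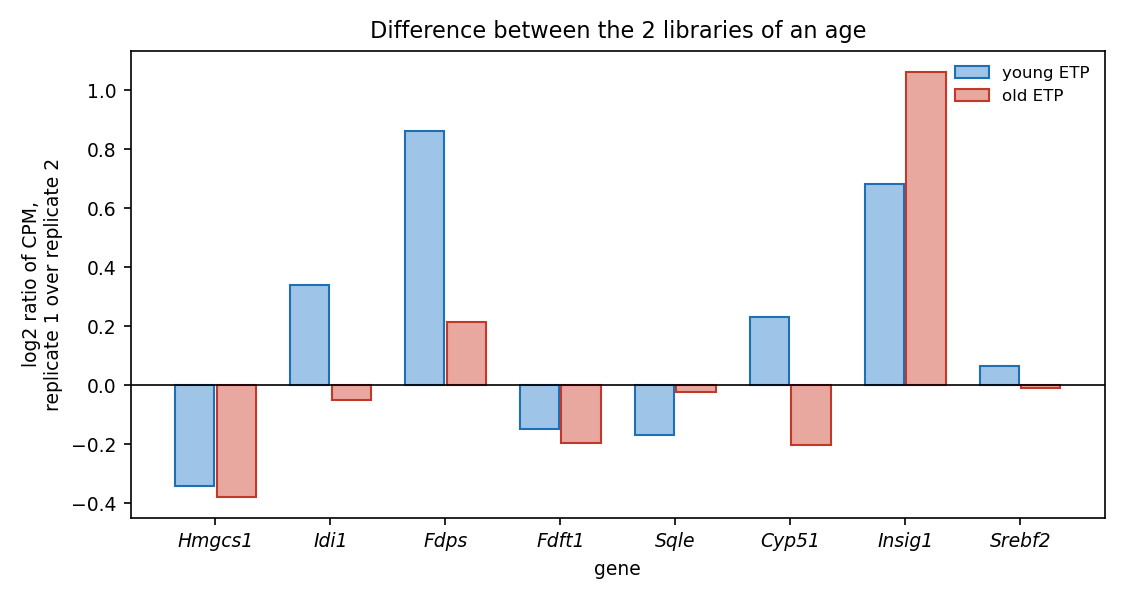
Log2 ratio of CPM of replicate 1 over replicate 2 in young (blue) and old (red) ETP for each of the 8 genes. *Insig1* is above 0 at both ages, by 0.68 and 1.06, *Hmgcs1* below 0 at both, by -0.34 and -0.38, and *Srebf2* is near 0 at both.

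The spread between libraries was uneven over the pathway. The median absolute log2 ratio between the replicates of an age was 0.28 in young and 0.20 in old ETP over the 8 genes, against 0.38 and 0.46 over all tested genes. The ratio of replicate 1 over replicate 2 had the same sign at both ages in *Hmgcs1*, *Fdft1* and *Sqle* (below 0) and in *Fdps* and *Insig1* (above 0). Replicate 1 was the deeper library at both ages, and the part of depth in this was not tested.

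Ratios within a library do not depend on how libraries are scaled. For each 100 fragments of the 6 enzymes together, *Srebf2* had 51.2 and 50.3 fragments in young against 75.6 and 68.3 in old replicates 1 and 2. This ratio was chosen after its parts were seen, and both old libraries lay above both young ones. The 6 enzymes summed to 269 and 262 CPM in young against 282 and 314 in old. For each 100 *Srebf2* fragments, *Insig1* had 38.3 and 24.9 in young against 34.2 and 16.3 in old replicates 1 and 2, so these ranges overlapped. All 8 genes together took 0.0472% and 0.0416% of a library's fragments in young, against 0.0578% and 0.0534% in old. *Srebf2* alone gave 2354 of 7856 and 823 of 2665 of these fragments in young, against 2562 of 6825 and 984 of 2586 in old.

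Levels can be compared between genes on the authors' FPKM scale, which divides by transcript length. Placed among the 10080 tested genes by FPKM, *Srebf2* was at percentiles 71.2 and 69.9 in young against 82.5 and 82.4 in old replicates 1 and 2. *Fdps*, with fewer fragments than *Cyp51* in every library, stood at percentiles 75.1, 55.0, 73.5 and 67.3 in young replicates 1 and 2 and old replicates 1 and 2. It was first by FPKM in young replicate 1 and *Srebf2* was first in the other three. *Idi1* came last of the 8 in all 4 libraries, at percentiles of 14.4 to 21.8. *Hmgcs1* (53.3 to 63.5), *Sqle* (52.8 to 58.0) and *Cyp51* (47.4 to 61.9) shared the middle, and their order changed from library to library. *Fdft1* lay below them at 36.9 to 45.4. *Insig1* moved between 41.2 in young replicate 2 and 69.3 in old replicate 1.

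On the TMM scale 6 of the 8 genes had higher estimates in old ETP, against 46.6% of all tested genes, and the median log2 fold change was 0.16 against -0.033. With limma on log2(FPKM + 1), 6 of the 8 had lower estimates and the median was -0.094, where the median of all tested genes was -0.27. *Srebf2* (0.35) and *Cyp51* (0.10) kept estimates above 0 there. Those of *Hmgcs1*, *Idi1* (-0.24), *Fdps*, *Sqle* and *Insig1* were below 0 but above the median of all genes. *Fdft1*, at -0.41, was below it.

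**Figure D4:**
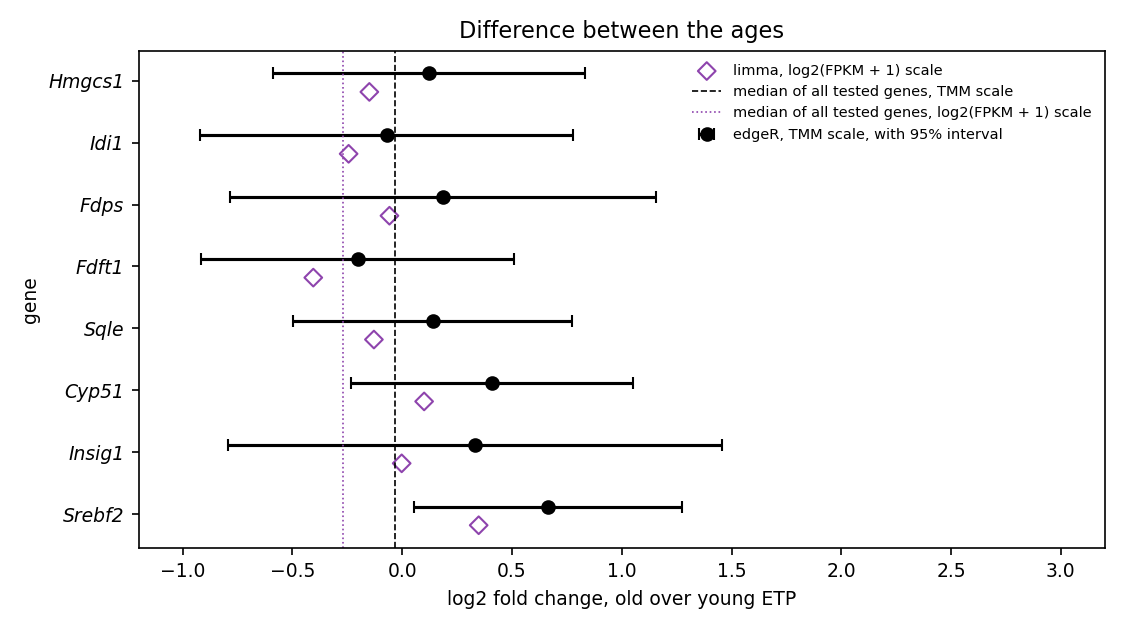
Log2 fold change of old over young ETP for the 8 genes, as edgeR estimates with 95% intervals (black) and as limma estimates on log2(FPKM + 1) (diamonds), with lines for the medians of all tested genes at -0.033 and -0.27. Only the *Srebf2* interval, 0.054 to 1.27, lies above 0.

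The remaining enzymes of the pathway also showed 0 calls, where edgeR called 0% and DESeq2 2.23% of all tested genes. Of 15 others, 15 were tested, and on the TMM scale 11 estimates were higher in old ETP and 4 lower, with a median log2 fold change of 0.17, and 0 passed edgeR or DESeq2. The median was 0.021 without old replicate 2 and -0.096 on log2(FPKM + 1). *Nsdhl*, a sterol dehydrogenase, was at 31.7 and 33.5 CPM in young against 34.7 and 40.7 in old replicates 1 and 2, and *Lbr*, a sterol reductase that is also a receptor of the nuclear lamina, was at 129 and 198 in young against 147 and 164 in old. The smallest p-values belonged to *Pmvk* and *Acat2*, which act before the isoprenoid step. *Acat2*, which condenses acetyl-CoA, was at 27.6 and 28.0 CPM in young against 20.9 and 19.6 in old (log2 fold change -0.45, unadjusted p = 0.188), and *Pmvk*, phosphomevalonate kinase, at 10.6 and 10.3 in young against 13.3 and 25.7 in old (0.89, unadjusted p = 0.0927). Without old replicate 2 the estimate for *Pmvk* was 0.32.

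Of 16 genes of SREBP control and sterol uptake, 15 were tested, with 11 higher and 4 lower estimates in old ETP and a median of 0.12 (-0.14 on log2(FPKM + 1)). Of these, 0 passed edgeR or DESeq2, against 0% and 2.23% of all tested genes. *Scap*, the sterol sensor that escorts SREBP, was at 132 and 115 CPM in young against 124 and 121 in old replicates 1 and 2. Its log2 fold change was -0.011 (95% interval -0.63 to 0.61). *Erlin1*, part of the machinery that degrades sterol-regulated proteins, was at 51.1 and 60.9 in young against 71.8 and 122 in old (0.79, unadjusted p = 0.0634, and 0.34 without old replicate 2). *Npc2*, which carries cholesterol out of lysosomes, was at 204 and 163 CPM in young against 237 and 275 in old.

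Of 14 genes of the oxysterol receptors (LXR) and of cholesterol efflux and storage, 10 were tested, with 8 higher and 2 lower estimates and a median of 0.59 (0.19 on log2(FPKM + 1)), which was 0.13 without old replicate 2. DESeq2 called 1 of the 10, *Cyp27a1*, against 2.23% of all tested genes. *Cyp27a1*, the sterol hydroxylase, was at 1.70 and 3.68 CPM in young against 13.5 and 49.7 in old replicates 1 and 2 (log2 fold change 3.59, edgeR adjusted p = 0.379, and 2.36 without old replicate 2). *Hsd3b7*, a bile acid synthesis enzyme, was at 6.85 and 6.25 in young against 15.1 and 23.5 in old (1.55, edgeR adjusted p = 0.469). *Lipa*, the lysosomal lipase, was at 52.2 and 67.3 in young against 64.0 and 118 in old. In *Cyp27a1*, *Hsd3b7* and *Lipa* old replicate 2 was the highest library, as it was for the summed dendritic cell markers, and a link between them was not tested. This did not hold for all genes of the list, such as *Abcg1* and *Nr1h2*. *Abcg1*, a cholesterol exporter, was at 181 and 217 CPM in young against 182 and 168 in old, and *Nr1h2*, which encodes an LXR, was at 42.6 and 30.1 in young against 70.9 and 37.5 in old.

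Fatty acid synthesis, which is mainly under the related factor SREBP1, had 10 of 12 genes tested, with 3 higher and 7 lower estimates and a median of -0.090 (-0.33 on log2(FPKM + 1)), which was 0.039 without old replicate 2. *Elovl6*, a fatty acid elongase, was at 117 and 158 CPM in young against 71.2 and 90.8 in old replicates 1 and 2 (log2 fold change -0.77, unadjusted p = 0.0443, adjusted p = 0.872). *Fads2*, a desaturase, was at 83.6 and 98.3 in young against 78.9 and 60.6 in old. The most abundant of the list by FPKM, the desaturase gene *Scd2*, was at 934 and 1003 in young against 947 and 774 in old, and *Elovl5* at 124 and 197 in young against 173 and 187 in old.

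The isoprenoid branch, which uses the products of *Idi1* and *Fdps* for prenyl groups, dolichol and ubiquinone, had 13 of 13 genes tested, with 5 higher and 8 lower estimates and a median of -0.083 (-0.35 on log2(FPKM + 1), and -0.20 without old replicate 1). Of these, 0 passed edgeR or DESeq2, against 0% and 2.23% of all tested genes. *Rabggtb*, *Fnta* and *Coq2*, of Rab prenylation, farnesylation and ubiquinone synthesis, had log2 fold changes of -0.22, -0.083 and -0.13, and of 0.0076, 0.023 and 0.12 without old replicate 2. *Pdss2*, also of ubiquinone synthesis, was at 7.96 and 9.61 CPM in young against 5.32 and 3.27 in old replicates 1 and 2 (0.489 times as high in old, unadjusted p = 0.0766), and *Icmt*, which methylates prenylated proteins, at 35.3 and 28.7 in young against 45.4 and 42.0 in old (0.45, unadjusted p = 0.173).

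**Figure D5:**
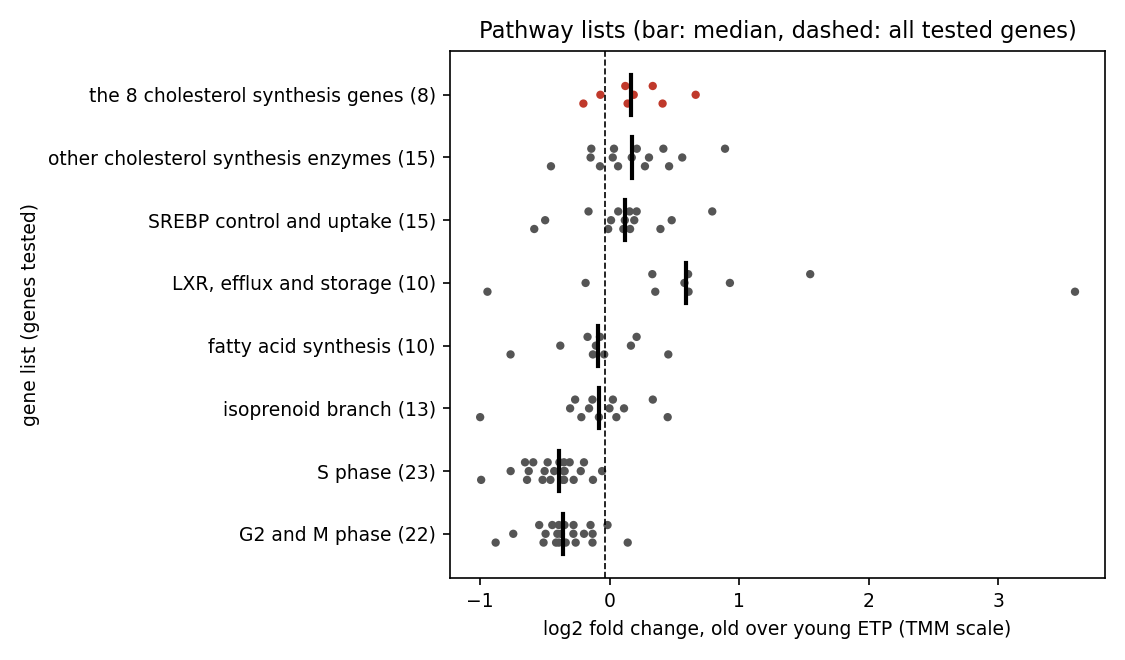
Log2 fold change of old over young ETP on the TMM scale for the tested genes of each list, with a bar for the median of the list and a dashed line for the median of all tested genes at -0.033. The 8 cholesterol synthesis genes (median 0.16, or -0.094 on log2(FPKM + 1)) stand beside the other enzymes of the pathway (0.17, or 0.021 without old replicate 2), the S phase list (-0.39) and the G2 and M phase list (-0.36, or 0.18 without young replicate 1).

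The mean profile of the 8 genes over the 4 libraries, in log2 CPM centred on each gene's mean, was -0.0056 and -0.19 in young against 0.13 and 0.074 in old replicates 1 and 2. The 5 tested genes nearest to it by root mean square difference were *Atxn2l* (0.00564), *Pon2* (0.0173), *Tspan31* (0.0189), *Atmin* (0.0197) and *Rchy1* (0.0215). The 8 genes themselves lay at differences of 0.132 for *Sqle* to 0.398 for *Insig1* from their mean. The 5 genes were picked as the nearest of all tested genes, so their differences are no yardstick for how alike the 8 are.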

How the data were processed

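RNA of sorted ETP was amplified, sequenced and aligned by the authors with STAR 2.3.0 to mm10 (GRCm38) using splice junctions of Ensembl release 71. The deposited table lists each gene's estimated count of fragments, a scaled signal (fragments after the authors' library factors) and FPKM, as Cufflinks 2.1.1 and Cuffdiff write them. Between 95.7% and 96.1% of the estimated counts of a library were whole to within 1e-06, and all were rounded before testing.

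A gene entered the tests if its FPKM reached 1 in 2 or more libraries (10080 did). Testing used R 4.3.3 and edgeR 4.0.16 (TMM, quasi-likelihood test, Benjamini-Hochberg adjustment over all 10080). Estimates come from the fit of the 2 ages with no covariate. DESeq2 1.42.0, limma 3.58.1, other scalings and filters, and leaving out each library were alternatives. The 8 genes and the lists were chosen with earlier results of these data known. In each list the 3 genes highest by FPKM and the 2 of smallest p were named, with any gene called by DESeq2, and 2 genes so picked are not reported here. A count of 3 fragments corresponds to between 0.176 and 0.654 CPM, so depth limits *Idi1* most. Marker lists served to describe the libraries. Promoters are RefSeq GRCm38.p6 and gene positions GENCODE M21.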

Additional observations from a re-analysis of the deposited data

How the results depend on the processing

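Of 96 values for the 8 genes over 12 alternatives, 79 kept their direction and side of the threshold and 16 reversed. With the authors' scaled fragments, whose median over all genes was -0.32, *Hmgcs1* was at -0.17, *Sqle* at -0.14 and *Fdps* at -0.18. FPKM were not level between libraries, with sums of 281542 and 135313 in young against 230420 and 122998 in old replicates 1 and 2. The part of this in the estimates on that scale was not tested. With limma on log2(FPKM + 1), *Hmgcs1* was at -0.15, *Sqle* at -0.13, *Fdps* at -0.058 and *Insig1* at -0.0025, and on log2(FPKM + 0.1) they were at -0.17, -0.15, -0.051 and -0.013. On these 3 scales 5, 6 and 6 of the 8 genes had lower estimates in old ETP, and the median of the 8 was -0.15, -0.094 and -0.099. Leaving out 1 library gave a median of 0.13 to 0.32 and ranges of -0.10 to 0.34 for *Hmgcs1*, -0.23 to 0.11 for *Idi1*, -0.18 to 0.69 for *Fdps*, -0.27 to 0.73 for *Insig1*, 0.056 to 0.22 for *Sqle* and -0.33 to -0.066 for *Fdft1*. *Srebf2* stayed above 0 in all 12 alternatives, but its unadjusted p was not always under 0.05. In edgeR it was 0.0662 with no filter on low values and 0.489 with the authors' scaled fragments. With limma on log2(FPKM + 1) and log2(FPKM + 0.1) it was 0.526 and 0.525. For fits that leave out 1 library only the log2 fold change of *Srebf2* is given, 0.63 to 0.71.

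Over all genes, edgeR called 0 higher and 0 lower in old ETP, against 210 and 15 with DESeq2 and 474 and 34 with no filter on low values, and leaving out 1 library gave 0 to 218 and 0 to 3 (218 and 3 without old replicate 1). With the replicate block 578 and 199 genes were called, and 1 of the 8, *Srebf2* (adjusted p = 0.0233 in edgeR, where 7.71% of all genes were called). Of the lipid lists the block fit called *Erlin1* (adjusted p = 0.0326), *Hsd3b7* (0.0136) and *Cyp27a1* (4.53e-05) higher in old ETP. It called *Elovl6* (adjusted p = 0.0168) and *Abca1*, a cholesterol exporter (0.0396), lower in old ETP. With age as the only term, the log2 fold change of *Abca1* was -0.94. The labels give the libraries only a shared number. Deviations from the age means correlated at 0.732 across genes for both pairs, which must be equal with 2 libraries an age. The cause of these changes was not tested.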
